A study of Mus musculus with 12 samples.

Results

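The vacuolar ATPase and the lysosomal enzymes were followed here as a set of 44 mouse genes, of 48623 genes in the table, in cultured primary microglia, the resident macrophages of the brain. The genes were taken by name: 17 subunits and accessory proteins of the vacuolar ATPase, 12 proteases, 9 glycosidases, lipid enzymes and cofactors, 4 membrane proteins and 2 transcription factors of the lysosome. All 44 were present in the table, and 43 passed the filter on low expression. The exception was *Ctsk*, the cathepsin of osteoclasts, which was at 0 in 6 of the 12 libraries and reached 5.17 TPM at most.

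The microglia came from C57BL/6J mice that were wild-type (WT) or homozygous for a *Trem2* R47H knock-in allele (KI), and were either left untreated or given IL-4, an anti-inflammatory cytokine, at 20 ng/ml for 48 h. There were 6 cultures, T13, T33 and T43 of WT and T15, T22 and T32 of KI, and each gave 1 untreated and 1 IL-4 library, which makes 12 libraries in 4 groups of 3. According to the study's methods, brains of neonatal pups were kept as mixed glia for weeks before microglia were isolated by mild trypsin, and pups of the KI line were cultured separately. The study describes lower *Trem2* expression as the main effect of this allele in mice, so the consequences of the lower level and of the R47H change itself cannot be told apart in these cultures. The values are TPM (transcripts per 1000000), a length-corrected share of each library's transcripts, so levels can be compared between genes. The number of reads behind a value is unknown. An SD is the spread between cultures, and a standard error (SE) is that of a linear model that shares information on the spread between genes. Where the culture is a replicate block, as described further on, the SE of an IL-4 difference reflects the spread of the steps within cultures. The labels do not say what a culture number stands for, so p-values measure the spread between these samples.

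The vacuolar ATPase is a rotary proton pump. Its cytosolic V1 sector hydrolyses ATP, its membrane-embedded V0 sector carries protons into endosomes and lysosomes, and several V0 subunits exist as paralogs with different tissue distribution. The resulting acid pH is what cathepsins, glycosidases and lipid hydrolases need to break down engulfed material, a central task of microglia and other macrophages. TFEB and TFE3 are transcription factors that bind the sequence GTCACGTG, the core of the CLEAR element, in the promoters of many lysosomal genes.

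Promoters were looked up in RefSeq (build GRCm38.p6, 250 bases before to 50 bases after the annotated start), which gave 43 promoters for 35 of the 44 members. No entry was found for *Atp6v1b2*, *Atp6v1c1*, *Atp6v1g1*, *Atp6v1h*, *Atp6v0a2*, *Atp6v0d2*, *Ctsb*, *Ctsh* and *Asah1*. GTCACGTG, read on either strand, was found in 8 of the 35 members, 22.9%, and in 2.55% of all 27025 genes with a promoter. The stretches that hold it are printed here because they carry the sequence shared by members of different function: 2 pump subunits, 4 luminal enzymes, a structural membrane protein and a calcium channel. Each is written 5′ to 3′ on the gene's own strand, with the GTCACGTG match in capitals, which appears as its reverse complement CACGTGAC where the match lies on the other strand. *Ctsa*, *Ctsd* and *Mcoln1* hold a second match that is not shown. The RefSeq start of a gene can differ from its GENCODE start.
*Atp6v0b*, chr4:117887349-117887378, minus strand: tgtgcgcggggGTCACGTGgggtcggcgca
*Atp6v0d1*, chr8:105566051-105566080, minus strand: gccctactgcgGTCACGTGagacgcggtgc
*Ctsd*, chr7:142387907-142387936, minus strand: cgcccgcgtctCACGTGACccgttgagggc
*Ctsa*, chr2:164833748-164833777, plus strand: atgagcaaactGTCACGTGatgcagatgct
*Lgmn*, chr12:102439125-102439154, minus strand: atggaatgtctGTCACGTGgtccattttat
*Glb1*, chr9:114401017-114401046, plus strand: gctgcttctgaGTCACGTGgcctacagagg
*Lamp1*, chr8:13159122-13159151, plus strand: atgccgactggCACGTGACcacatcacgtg
*Mcoln1*, chr8:3500435-3500464, plus strand: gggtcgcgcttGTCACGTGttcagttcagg

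The palindrome CACGTG alone, which lies inside GTCACGTG, was present in 12 of the 35 members, 34.3%, and in 8.09% of all genes. The 4 members that had it without GTCACGTG were *Atp6v0e*, *Atp6v1a*, *Ctsf* and *Ctsl*. The spaced palindrome TTCNNNNGAA, a form bound by STAT6, the transcription factor activated by the IL-4 receptor, was found in 1 of the 35 members, *Tfeb*, or 2.86%, and in 8.01% of all genes. These are matches of letters in a 300-base window and no evidence of binding. *Atp6v1a* and *Ctsl*, which are among the members that rose with IL-4 further on, are shown with CACGTG in capitals.
*Atp6v1a*, chr16:44139374-44139401, minus strand: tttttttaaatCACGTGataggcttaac
*Ctsl*, chr13:64370740-64370767, minus strand: gcgttagaagcCACGTGctgatctaaat

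*Trem2* itself was at 1328 to 1886 TPM in untreated WT cultures and at 325 to 770 TPM in untreated KI cultures, and the groups did not overlap after IL-4 either. Culture T15 stood apart from the other KI cultures. Its untreated library had the lowest summed TPM of the 44 members, 43844, and of the 18 microglia markers, 12654, and the highest sum of the 12 astrocyte markers, 4858 TPM, with 3717 TPM after IL-4, whereas the 10 libraries of the other cultures held 168 to 704 TPM of astrocyte markers. Among the WT cultures, T13 had the highest astrocyte sum, 704 TPM untreated and 632 TPM after IL-4, against 168 to 205 TPM in T33 and T43. Its untreated library had the lowest sum of the members in WT, 59923 TPM. Over all cultures, 5 of 17 microglia markers tested were lower in KI and none was higher, where 0.357% of all genes were lower and 1.29% higher. The sum of the mural cell and fibroblast markers was 704 to 1327 TPM in KI against 142 to 617 TPM in WT, and 2 of 5 tested were higher in KI. Most of this sum was *Acta2* and *Tagln*, while *Myh11* was at or near 0 in every library. The sum of the oligodendrocyte lineage markers was 146 to 547 TPM in untreated KI against 69.5 to 137 TPM in untreated WT cultures, with overlap after IL-4, and 1 of 7 tested was higher in KI. Of this list, *Mog* and *Sox10* reached 1.54 and 1.53 TPM at most. The neuron markers summed to at most 53.2 TPM in any library. *Gfap*, *Aqp4* and *Slc1a3* were above 0 in every library, while *Gjb6* was at 0 in 11 of 12. In RNA from a whole culture, fewer cells of a type and less RNA per cell cannot be told apart, so genotype differences are given with and without T15.

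The 44 members made up between 4.38% and 7.99% of all TPM in a library. Most of this was protease mRNA. *Ctsd*, an aspartyl protease that also activates other cathepsins, had the highest level of all members and took 29.6% to 43.9% of their summed TPM. In WT cultures, in the order T13, T33 and T43 that is kept from here on, it was at 23743, 33013 and 33655 TPM untreated and at 19510.0, 25420.4 and 22801 TPM after IL-4. In KI cultures, in the order T15, T22 and T32, its level was 16864, 34659 and 33479 TPM untreated and 19077, 24351 and 26544 TPM after IL-4. It was lower after IL-4 in 5 of 6 cultures, T15 being the exception.

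*Ctsb*, a cysteine protease with both endo- and exopeptidase activity, was the next most abundant member. Its level was 8953, 14114 and 14617 TPM in untreated WT and 9515, 14017 and 14081 TPM in IL-4-treated WT cultures. In KI cultures it was 6608, 13857 and 15006 TPM untreated and 8899, 11335 and 14650.3 TPM after IL-4. The groups overlapped throughout, and the log2 difference with IL-4 was 0.02 (95% interval -0.47 to 0.51). The 17 vacuolar ATPase members ranged from a mean of 21.3 TPM for *Atp6v0a2* to 1653 TPM for *Atp6v0c*, the proteolipid of the proton-carrying ring, of which each pump holds several copies. The 2 transcription factors were low, at a mean of 36.6 TPM for *Tfeb* and 82.9 TPM for *Tfe3*.

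The first comparison asked which members respond to IL-4. A pair of V0 subunits rose, and with all 6 cultures no member fell with or without the replicate block described further on. *Atp6v0d2* (ENSMUSG00000028238, chr4:19876841-19922605, minus strand, GRCm38), the macrophage- and osteoclast-enriched form of subunit d, rose by 4.14 on the log2(TPM + 1) scale (SE 0.33), and *Atp6v0a1* (ENSMUSG00000019302, chr11:101009452-101063719, plus strand), a form of the proton-path subunit a, rose by 1.45 (SE 0.14). In limma's F-test of IL-4 and its interaction with genotype, 2 of 43 members were higher, where 0.75% of all 11204 genes tested were higher and 0.893% changed in either direction. With the culture as a replicate block, which compares the libraries of each culture with each other, 10 of 43 members were higher and none lower, where 1.79% of all genes were higher and 2.14% changed in either direction. Without T15, 3 members were higher in the fit without the block, as were 1.05% of all genes. With the block and without T15, 9 members were higher and 1, *Ctsd*, was lower, where 1.97% of all genes changed in either direction. Of the 17 microglia markers tested, 1 was higher and 1 lower with IL-4, and the mean log2 difference over the list was 0.04. Their summed TPM was higher after IL-4 in 6 of 6 cultures, from 28462 to 31780 TPM untreated to 34662 to 39127 TPM after IL-4 in WT and from 12654 to 25655 TPM to 21984 to 29963 TPM in KI. The list did not move as a whole: *C1qa*, *C1qb* and *C1qc* rose in every culture and *Cx3cr1* fell in every culture. In WT culture T33, *C1qc* went from 4536 to 6204 TPM and *Cx3cr1* from 428 to 141 TPM. The mean log2 difference over the astrocyte list was 0.22, and none of its 10 markers tested was called. The part of these markers in the IL-4 differences was not tested.

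*Atp6v0d2* stood at 10.1, 9.88 and 8.14 TPM in untreated WT cultures and at 159.6, 306 and 222 TPM after IL-4. In KI cultures it went from 8.80, 34.0 and 17.7 TPM to 131, 319.9 and 453 TPM. The lowest IL-4 library lay above the highest untreated one, with ratios within a culture between 9.42 and 31.0 and a geometric mean of 19.1. It ranked 7th of all genes by p for IL-4 (adjusted p = 3.96e-05 by limma with Benjamini-Hochberg adjustment, and 1.01e-06 with the replicate block). Its ubiquitous paralog *Atp6v0d1*, whose product occupies the same place in the pump, was at 79.8, 90.9 and 107 TPM in untreated and 79.9, 109.7 and 98.0 TPM in IL-4-treated WT cultures. In KI cultures it was at 125, 107 and 119.7 TPM and 120.0, 118 and 152 TPM. Its IL-4 difference was 0.09 log2 (95% interval -0.18 to 0.37), so that the interval of *Atp6v0d2*, 3.44 to 4.84, lay entirely above it.

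*Atp6v0a1* stood at 90.8, 108 and 114 TPM in untreated WT cultures and at 245, 343 and 313 TPM after IL-4. The KI cultures went from 75.1, 97.6 and 95.4 TPM to 205, 211 and 301 TPM. The ratio within a culture was between 2.17 and 3.18, and again no IL-4 library overlapped the untreated ones (adjusted p = 0.00024 by limma, 2.47e-05 with the replicate block). Both genes were past the threshold under every one of the 16 alternatives run, with all 6 left-out cultures among them. Both also passed in either genotype alone: the IL-4 difference of *Atp6v0d2* was 4.43 log2 in WT and 3.85 in KI (adjusted p = 0.000288 and 0.00149 by limma), and that of *Atp6v0a1* was 1.51 and 1.40 (adjusted p = 0.00209 and 0.00544 by limma).

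**Figure D1:**
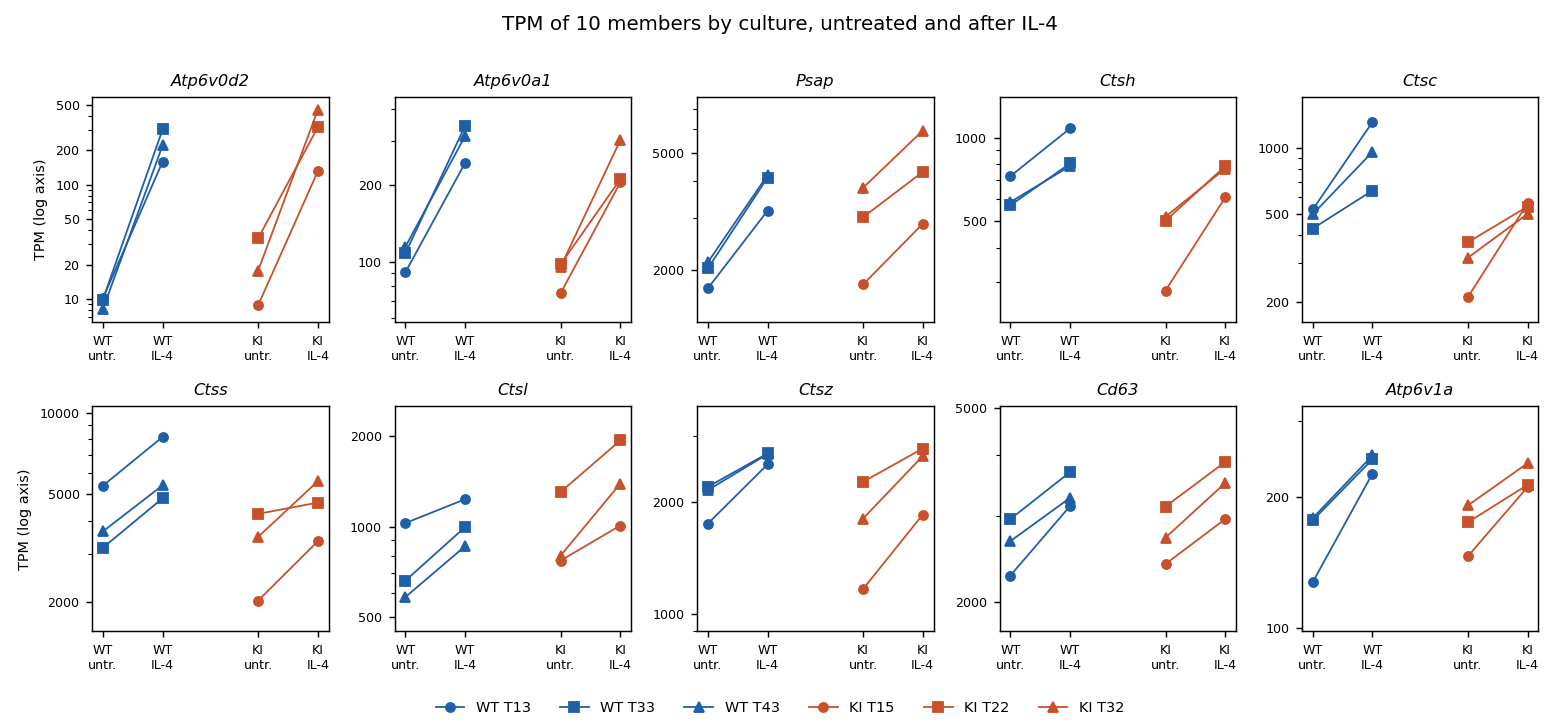
TPM (log axis, with its own scale in each panel) of the 10 members that were higher with IL-4 in the fit with the replicate block, untreated (untr.) and after IL-4, with 1 line for each culture. Every line rises, and for *Atp6v0d2* and *Atp6v0a1* all 6 IL-4 points lie above all 6 untreated points.

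The make-up of the V0 sector, as far as mRNA shows it, differed between untreated and IL-4-treated cultures. *Atp6v0d2* was 7.04% to 11.3% of the TPM of both d subunits in untreated WT and 66.6% to 73.6% after IL-4, and 6.56% to 24.0% and 52.3% to 74.9% in KI. Among the 4 a subunits, *Atp6v0a1* took 44.2% to 45.4% in untreated WT cultures and 69.9% to 72.5% after IL-4. In KI cultures its share was 30.8% to 42.6% untreated and 60.3% to 64.7% after IL-4, below WT in both states. The level of *Atp6v0a1* itself overlapped between WT and KI in both states. Among all genes, 18.2% were without overlap between WT and KI untreated and 18.5% after IL-4. The complementary share was that of *Tcirg1*, the a3 form of lysosomes and osteoclasts, which is no member and was chosen after its values were seen. Its share was 48.9% to 50.8% in untreated WT and 22.8% to 26.1% after IL-4, and 36.0% to 60.3% and 24.8% to 36.5% in KI, while its own level had an IL-4 difference of -0.13 log2 (SE 0.23, adjusted p = 1.00 by limma). *Atp6v0a4*, the kidney form, was at or near 0 in every library. These shares were not tested, since they are computed from the levels and each also depends on the levels of its paralogs.

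**Figure D2:**
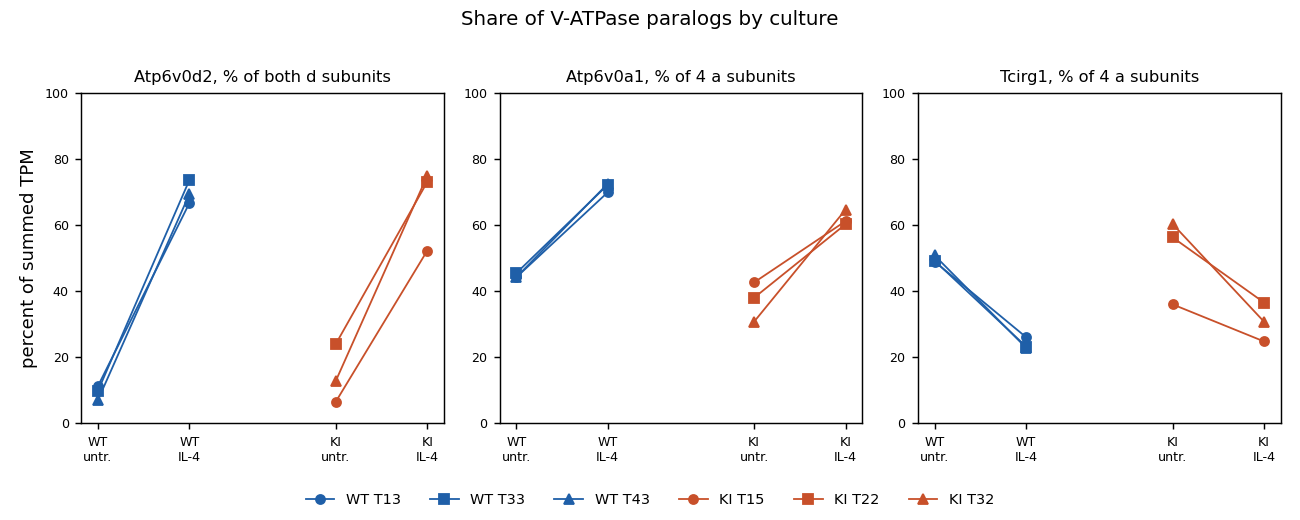
Share of summed TPM, in percent, of *Atp6v0d2* among both d subunits and of *Atp6v0a1* and *Tcirg1* among the 4 a subunits, untreated (untr.) and after IL-4, with 1 line for each culture. *Atp6v0d2* goes from at most 24.0% in an untreated culture to at least 52.3% after IL-4, and in every culture the line of *Atp6v0a1* rises while that of *Tcirg1* falls.

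The other V0 and accessory members gave no call, with IL-4 differences between -0.21 and 0.30 log2. *Atp6v0b*, a proteolipid of the ring, was the lowest of them and had the third largest decrease of all members, at 611, 842 and 779 TPM in untreated WT and 445, 677 and 677 TPM after IL-4. In KI it was at 579, 712 and 784 TPM and 621, 608 and 704 TPM. It was lower in 5 of 6 cultures, and the difference of -0.21 (SE 0.14) was not past the threshold in either fit (adjusted p = 0.945 by limma, 0.394 with the block). The 8 V1 subunits had a median IL-4 difference of -0.01 log2. *Atp6v1a*, the catalytic subunit A, was the 1 member of V1 that rose with the replicate block, by 0.48 (SE 0.10, adjusted p = 0.0443, and 0.197 without the block, by limma). It and *Cd63* below fall outside the 8 members of smallest p and were named after their values were seen.

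*Atp6v1a* was at 127, 177 and 179 TPM in untreated and 227, 245 and 249.7 TPM in IL-4-treated WT cultures, and at 146, 175 and 191 TPM and 211, 214 and 239.7 TPM in KI cultures. *Atp6v1b2*, the non-catalytic subunit B that forms the ATP-binding ring with it, had a difference of 0.40 (SE 0.09) and missed the threshold in both fits (adjusted p = 0.18 and 0.0775 with the block, by limma). In both of these, as in *Atp6v0d2* and *Atp6v0a1*, all 6 IL-4 libraries lay above all 6 untreated ones. Such a separation was seen in 4 of 43 members and in 1.12% of all genes. The remaining 6 V1 subunits lay between -0.13 and 0.17 log2, among them *Atp6v1g1* of the peripheral stalk, the 1 member that was lower in all 6 cultures, as 2.51% of all genes were.

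Of the 11 proteases tested, 5 rose with the replicate block and none in the F-test without it. *Ctsc*, which activates serine proteases of immune cells, came closest without the block. Its level was 524, 429.8 and 499 TPM in untreated WT and 1308, 639 and 957 TPM in IL-4-treated WT cultures, and 210.3, 373 and 317 TPM and 560.2, 541 and 501 TPM in KI cultures. It was higher after IL-4 in 6 of 6 cultures, by 0.91 log2 (SE 0.17, adjusted p = 0.0563 without and 0.00443 with the block, by limma), but the levels of untreated WT and IL-4-treated KI cultures overlapped. Without the block it was past the threshold in the test of the average difference alone (adjusted p = 0.0153 by limma, where 1.14% of all genes were higher) and in the fit that includes an astrocyte marker covariate (adjusted p = 0.0189 by limma, where 1.45% of all genes were higher).

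*Ctsh*, an aminopeptidase, went from 725, 569 and 585 to 1078, 806 and 789 TPM in WT and from 280.3, 501 and 518 to 608, 788 and 772 TPM in KI cultures (log2 difference 0.64, SE 0.09, adjusted p = 0.00325 with the block by limma). *Ctss*, an elastase-like cathepsin that stays active at neutral pH and trims the invariant chain of MHC class II, went from 5388, 3172 and 3647 to 8159.7, 4839 and 5402 TPM in WT cultures. In KI cultures it went from 2022, 4237 and 3480.0 to 3354, 4662 and 5595 TPM (0.55, SE 0.08, adjusted p = 0.00774 with the block by limma). The spread of *Ctss* between cultures was wider than its step with IL-4: T15 stayed lowest and T13 highest in both states.

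*Ctsl*, an endopeptidase, was at 1027, 661 and 583 TPM in untreated WT and 1232, 996 and 860.4 TPM after IL-4. In KI it was at 771, 1303 and 800.1 TPM and 1008, 1932 and 1389 TPM. Its difference was 0.53 (SE 0.08, adjusted p = 0.00923 with the block by limma). *Ctsz*, a carboxypeptidase, was at 1747, 2195 and 2150.2 TPM in untreated and 2522, 2698 and 2687 TPM in IL-4-treated WT cultures. In KI cultures it was at 1166, 2264 and 1803 TPM and 1848, 2782 and 2656 TPM. This is a difference of 0.44 (SE 0.07, adjusted p = 0.0146 with the block by limma). For all 4 of *Ctsh*, *Ctss*, *Ctsl* and *Ctsz* the step was upward in 6 of 6 cultures, and in the F-test without the block the adjusted p lay between 0.221 and 0.727. *Ctsz* was also past the threshold without the block when the astrocyte covariate was included (adjusted p = 0.00773 by limma).

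The most abundant protease took the opposite direction. The IL-4 difference of *Ctsd* was -0.31 (SE 0.21, adjusted p = 0.963 by limma, 0.23 with the block). With T15 left out and the block kept, it was -0.41 (SE 0.07) and past the threshold (adjusted p = 0.0277 by limma). Under that setting 10 members were again called, 9 of them shared with the 10 of all cultures, with *Ctsd* in place of *Atp6v1a*.

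Of the 9 glycosidases, lipid enzymes and cofactors, *Psap* rose with the replicate block. *Psap* encodes prosaposin, the precursor of the saposins that help hydrolases degrade sphingolipids. Its level was 1737, 2028 and 2128 TPM in untreated WT and 3179, 4116 and 4192 TPM in IL-4-treated WT cultures. In KI it was 1790.3, 3022 and 3801 TPM and 2872, 4299 and 5931 TPM. The step was upward in 6 of 6 cultures with ratios between 1.42 and 2.03, while the untreated level of KI culture T32 exceeded that of IL-4-treated T13. The difference of 0.78 had an SE of 0.20 without and of 0.06 with the block (adjusted p = 0.244 and 6.07e-05 by limma), and with T15 left out it passed without the block too (adjusted p = 0.015 by limma).

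*Grn*, the gene of progranulin, which binds prosaposin and travels with it to lysosomes, gave no call. Its mRNA stood at 1375, 1436 and 1482 TPM in untreated WT and 1983, 1402 and 1532 TPM after IL-4, and at 747, 1347 and 1224 TPM and 1132, 1451 and 1390.2 TPM in KI cultures. Its IL-4 difference was 0.24 (95% interval -0.08 to 0.56, adjusted p = 0.961 by limma). *Neu1*, the lysosomal sialidase, had the second largest decrease, -0.27 (SE 0.20, adjusted p = 0.987 by limma). Its levels were 73.3, 64.8 and 77.0 TPM in untreated and 42.4, 60.8 and 78.6 TPM in IL-4-treated WT cultures, and 43.4, 56.6 and 90.2 TPM and 46.5, 42.95 and 64.8 TPM in KI cultures, with the groups overlapping. The other 6 lay between -0.07 and 0.41 log2.

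Of the 4 membrane proteins, *Cd63*, a tetraspanin of late endosomes and exosomes, rose with the block from 2268, 2958 and 2667 to 3145, 3691 and 3269.6 TPM in WT cultures and from 2396, 3139.7 and 2712 to 2959, 3872 and 3508 TPM in KI cultures. The difference was small but even between cultures, 0.34 (SE 0.06, adjusted p = 0.0345 with and 0.644 without the block, by limma). *Lamp1*, *Lamp2* and the calcium channel gene *Mcoln1* gave no call, between -0.19 and 0.14 log2. Neither did the transcription factors. *Tfeb* was at 37.1, 51.1 and 18.6 TPM in untreated and 48.8, 34.1 and 45.2 TPM in IL-4-treated WT cultures, and at 31.2, 26.4 and 20.4 TPM and 44.4, 46.0 and 36.1 TPM in KI cultures, a difference of 0.52 (SE 0.23, adjusted p = 0.795 by limma). *Tfe3* was at 79.5, 87.4 and 75.3 TPM and 94.6, 91.1 and 102 TPM in WT and at 55.6, 75.2 and 84.1 TPM and 85.9, 87.6 and 76.3 TPM in KI cultures, a difference of 0.24 (SE 0.13, adjusted p = 0.926 by limma). Both were higher in 5 of 6 cultures, and neither passed the threshold.

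**Figure D3:**
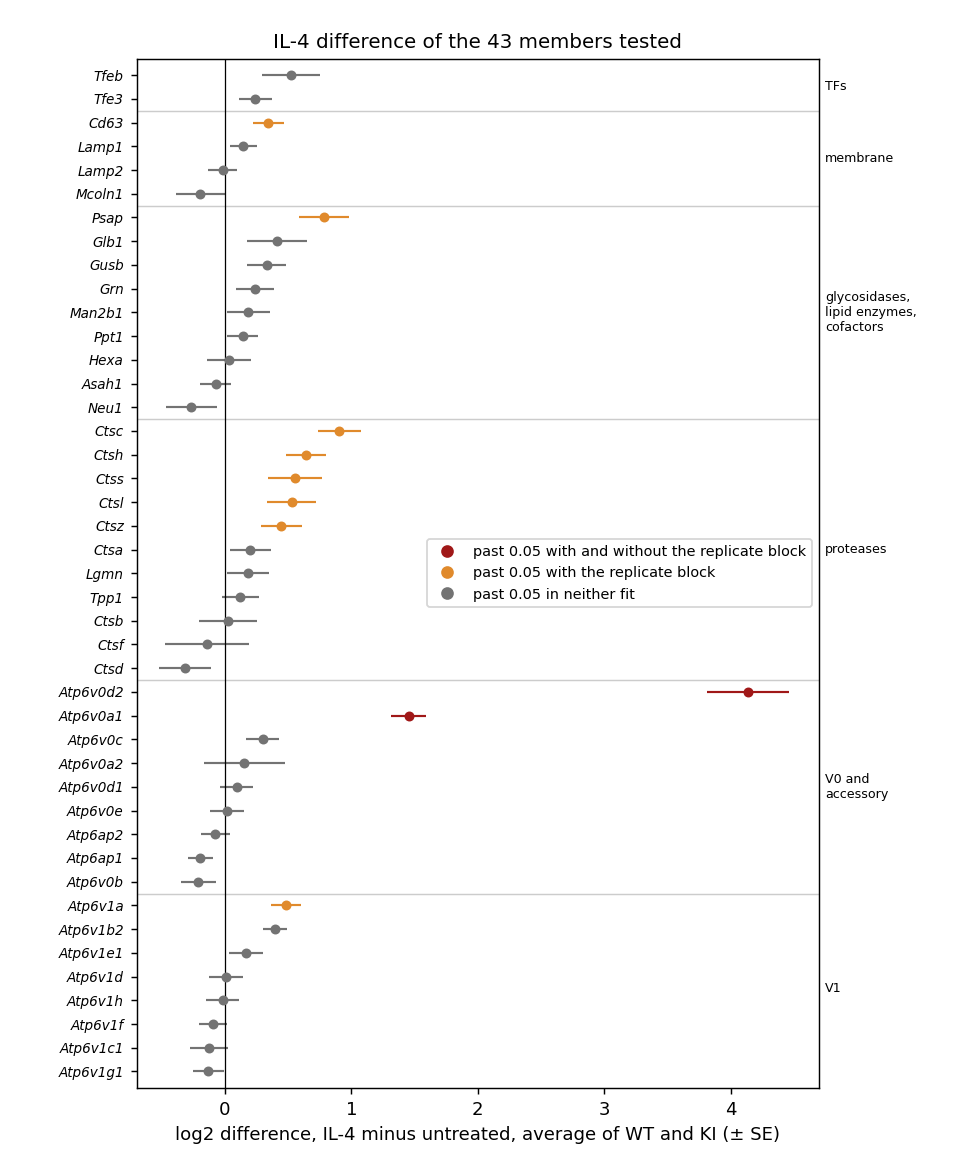
IL-4 minus untreated, as the average log2 difference of WT and KI (points) with its standard error (bars), for the 43 members tested, grouped by role: V1 and V0 sectors of the vacuolar ATPase, proteases, glycosidases, lipid enzymes and cofactors, membrane proteins and transcription factors (TFs). *Atp6v0d2* at 4.14 and *Atp6v0a1* at 1.45 stand to the right of all others, which lie between -0.31 and 0.91.

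Across the members, the median IL-4 difference was 0.15 log2, against 0.04 over all genes tested. A rise in all 6 cultures was seen in 15 of 43 members and in 5.73% of all genes. Of the 10 members that rose with the block, 8 had a promoter entry, and none of these 8 held GTCACGTG, while *Atp6v1a* and *Ctsl* held CACGTG. The sum of the 17 vacuolar ATPase members in WT cultures was 5899 ± 730.3 TPM (SD, n = 3) before and 6640 ± 894 TPM (SD, n = 3) after IL-4. In KI cultures it was 6037 ± 638 TPM (SD, n = 3) and 6711 ± 712 TPM (SD, n = 3), so that the groups overlapped in the sum. Within each culture the sum was higher after IL-4, in 6 of 6 cultures, and this was not tested. The rise was not shared by all members: 4 of 8 V1 and 6 of 9 V0 and accessory members had an average log2 difference above 0. The most abundant of them, *Atp6v0c*, went from a mean of 1426 to 1824 TPM in WT and from 1544 to 1819 TPM in KI.

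Other genes of the same pathways were described by counts, from lists of 80 genes of which 72 were tested. None was called for IL-4 without the replicate block. With it, 2 of the 29 hydrolases and activators tested rose, *Pla2g15*, the lysosomal phospholipase A2, by 0.75 log2 (SE 0.10, adjusted p = 0.00578 by limma) and *Lipa*, the acid lipase of cholesteryl esters, by 0.41 (SE 0.08, adjusted p = 0.0465 by limma). These were 2 of the 72, or 2.78%, near the 1.79% of all genes that were higher in that fit. None of 13 other pump subunits and regulators, 17 membrane proteins and transporters, 11 sorting proteins and inhibitors and 2 further MITF-TFE transcription factors was called. The medians of these lists lay between 0.00 and 1.25 log2, the highest being that of the 2 transcription factors.

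The second comparison asked whether the members differ between KI and WT microglia. None of 43 passed the threshold in limma's F-test of genotype and its interaction with IL-4, where 1.65% of all genes did, 145 higher and 40 lower in KI (84 and 56 with quantile normalization, 106 and 73 with median-ratio scaling). With the replicate block none passed either, where 0.687% of all genes did. An unadjusted p under 0.05 was reached by 4 of 43 members, 9.30%, and by 16.1% of all genes. Without T15 it was 7 of 43, 16.3%, against 12.5%, and with the astrocyte marker covariate 10 of 43, 23.3%, against 10.5%, so the order of the shares depends on the setting. In the 4 found with all cultures, the values of *Ctsc* and *Ctsh* were lower and those of *Atp6v1h* and *Atp6v0d1* higher in KI. The WT and KI groups were without overlap for 9 of 43 members untreated and 9 of 43 after IL-4, against 18.2% and 18.5% of all genes.

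*Ctsc* had the largest decrease and came closest to the threshold. All 3 KI cultures lay below all 3 WT cultures in both states, with the levels given above. The average difference was -0.76 log2 (95% interval -1.13 to -0.39, adjusted p = 0.0806 by limma). It was -0.66 without T15 (adjusted p = 0.162 by limma). A test of the average difference alone, instead of the F-test, put it past the threshold (adjusted p = 0.0239 by limma), as 1.19% of all genes were in that direction, and it was then the only member called. *Ctsh*, with -0.44 (SE 0.16, adjusted p = 0.282 by limma), and *Ctss*, with -0.39 (SE 0.21, adjusted p = 0.587 by limma), were the next lowest. Both were nearer to 0 without T15, at -0.23 and -0.14.

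At the other end, *Atp6v0a2*, a form of subunit a found in the Golgi and in endosomes, was at 14.2, 12.8 and 13.02 TPM in untreated and 14.2, 21.9 and 20.1 TPM in IL-4-treated WT cultures. In KI it was at 37.6, 14.7 and 27.6 TPM and 47.1, 11.2 and 21.2 TPM, with T15 highest in both states. The average difference of 0.57 (SE 0.32, adjusted p = 0.529 by limma) was 0.16 without that culture. *Atp6v0d2* behaved the other way round: its difference of 0.56 (SE 0.33, adjusted p = 0.553 by limma) was 1.04 without T15 (SE 0.22, adjusted p = 0.097 by limma). T15 had the lowest *Atp6v0d2* of the KI cultures in both states.

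*Atp6v1h*, the regulatory subunit H of V1, was at 89.6, 119.9 and 121 TPM in untreated WT and 101, 110.3 and 115 TPM in IL-4-treated WT cultures. In KI it was at 171, 122 and 151 TPM and 148, 127 and 157 TPM. The KI cultures lay above the WT cultures in both states (0.41, SE 0.13, adjusted p = 0.214 by limma), also without T15 (0.34). For *Atp6v0d1* the groups overlapped untreated and not after IL-4, and the difference was 0.39 with and 0.39 without T15 (adjusted p = 0.244 and 0.392 by limma). *Grn*, at -0.36 (95% interval -0.68 to -0.04), *Tfeb*, at -0.18, and *Tfe3*, at -0.20, were lower on average and not past the threshold (adjusted p = 0.396, 0.833 and 0.686 by limma). Without T15 these were -0.17, -0.27 and -0.12. *Ctsd* and *Ctsb* had differences of -0.05 and -0.13 with all cultures and of 0.19 and 0.15 without T15. With T15 kept, both were also above 0 with the astrocyte covariate, at 0.37 and 0.38, and with quantile normalization, so that the sign of both depends on the culture and on the processing.

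**Figure D4:**
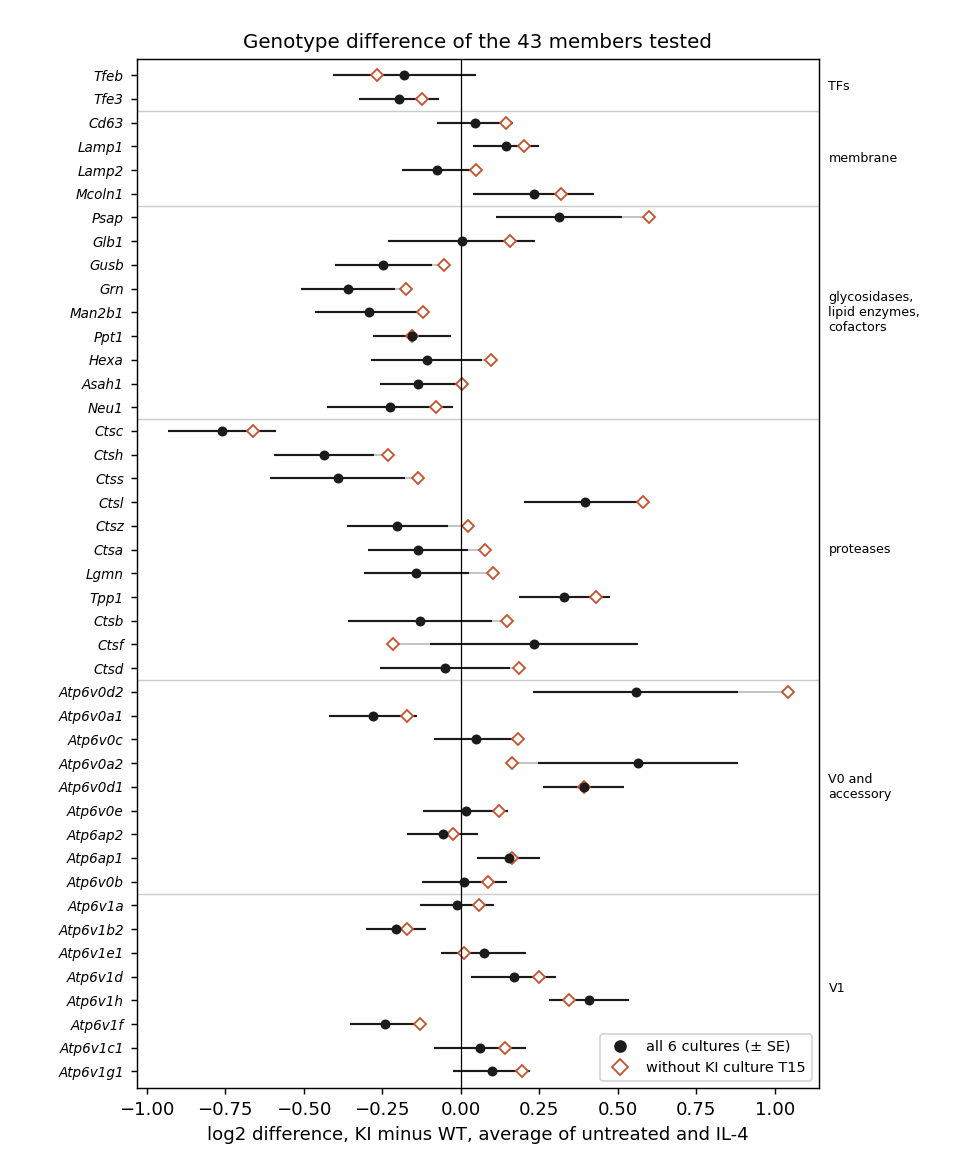
KI minus WT, as the average log2 difference of untreated and IL-4-treated cultures, for the 43 members tested, grouped by role, with all 6 cultures (black points, bars are standard errors) and without KI culture T15 (open diamonds). *Ctsc* stays lowest either way, whereas *Atp6v0d2*, *Psap* and most proteases move to the right without T15.

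The median genotype difference of the members was -0.05 log2 with all cultures and 0.09 without T15, against 0.13 and 0.10 over all genes. With all cultures 20 of 43 members, 46.5%, were above 0, against 63.1% of all genes. Without T15 these were 28 of 43, 65.1%, against 61.2%, and with median-ratio scaling 11 of 43, 25.6%, against 49.0%. Leaving out WT culture T13 moved the count the other way, to 12 of 43 against 62.4% of all genes, with a member median of -0.13. Scaling moved the median of all genes by more than 0.1, from 0.13 to -0.08 with quantile normalization, where the median of the members was -0.06, and to -0.01 with median-ratio scaling, where it was -0.20. By role, the medians were 0.07 for V1, 0.05 for V0 and accessory proteins, -0.14 for the proteases, -0.16 for glycosidases, lipid enzymes and cofactors, 0.09 for membrane proteins and -0.19 for the transcription factors. Without T15 they were 0.10, 0.16, 0.08, -0.06, 0.17 and -0.20 in the same order, so that the median of the proteases changed sign. Microglia and mural cell markers differed between KI and WT as given above. The sum of the oligodendrocyte lineage markers did so in untreated cultures, and that of the astrocyte markers was high in T15 only. The part of these markers in the genotype differences was not tested. With the astrocyte marker score as a covariate no member was called for genotype, and the largest difference was that of *Atp6v0d2*, 1.27 (SE 0.25, adjusted p = 0.0635 by limma). Of the 72 other pathway genes tested none was called. *Laptm4b*, a late endosomal membrane protein, was nearest, at 17.6 to 31.3 TPM in untreated WT and 43.6 to 100.3 TPM in untreated KI cultures (1.44 log2, SE 0.29, adjusted p = 0.0504 by limma). T15 was the highest KI culture, and without it the difference was 1.05 (SE 0.23, adjusted p = 0.103 by limma). The gene passed the threshold under 3 of the 16 alternatives.

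The third comparison asked whether the response to IL-4 depends on genotype. No gene of the table passed the test of the interaction, which is 0% of 11204 genes (4 of 29745 without the filter on low expression), and no member did (limma, 0 of 43 at an unadjusted p under 0.05, and 357 of all genes). The interaction of *Atp6v0d2* was -0.57 log2 (95% interval -1.97 to 0.83) and that of *Atp6v0a1* was -0.11 (95% interval -0.71 to 0.48). With the replicate block *Psap* had the smallest p of the members, with an interaction of -0.35 (SE 0.13, adjusted p = 0.969 by limma). In no member did all 3 WT cultures move one way with IL-4 and all 3 KI cultures the other.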

How the data were processed

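Polyadenylated RNA of 12 libraries of primary microglia was sequenced. Per the study's methods, adaptors were removed with Trim Galore, Salmon (with GC and position correction) estimated transcript abundances against GRCm38 from ENSEMBL, and tximport combined these by gene. Versions are not given in the sources used here. The deposited values are TPM per gene and library, which sum to 1000000 in each library and keep no read counts, so depth and counting error are unknown.

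Identifiers were matched to GENCODE symbols and coordinates on GRCm38, and each member had 1 identifier. Members, gene lists and tests were chosen with earlier results of these data known. On the log2(TPM + 1) scale, 11204 genes had a mean above 1.5, and a linear model with genotype, IL-4 and their interaction was fitted to them over all 12 libraries (limma 3.58.1 under R 4.3.3, with eBayes and trend = TRUE). Genotype and IL-4 were each tested with the interaction in an F-test, in place of the likelihood-ratio test on counts that the authors used, and p-values were adjusted by Benjamini-Hochberg over all genes tested (threshold 0.05). Differences are averages over the other factor on this scale, which understates changes of low genes, and 95% intervals use limma's moderated standard error. Python 3.11.15 and pandas 2.3.3 served for tables and plots, and the fit was tested on simulated data.

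The culture number in the sample names pairs an untreated with an IL-4 library. The deviations of the 2 libraries of a culture from their group means correlated at 0.08 to 0.38. In 5 of 6 cultures the untreated library correlated best with its own IL-4 library among those of its genotype, the exception being T22 (0.121 with its own and 0.188 with another), so the pairing rests on the shared number in the names. The culture was entered as a random replicate block for genotype (within-culture correlation 0.198) and, for the other tests, as a fixed block.

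Values in every library are given for members past the threshold with or without the block (at most 8 per comparison), the 3 largest differences in each direction for genotype and IL-4, the 3 highest levels, *Atp6v0d1*, *Atp6v0d2*, *Tfeb*, *Tfe3* and *Grn*. Alternatives were a pseudocount of 0.1, no filter, a filter at 3, the replicate block, quantile and median-ratio scaling, eBayes with no trend, a test of the average difference alone, an astrocyte marker covariate and leaving out each culture. The block with T15 left out was added after seeing the data.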

Additional observations from a re-analysis of the deposited data

How the results depend on the processing

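With the main settings 2 members were past the threshold for IL-4. There were 3 with the filter at 3 (where 1.08% of all genes were higher) and 3 in the test of the average difference alone, *Ctsc* being the third in both, 10 with the replicate block, 10 with the block and culture T15 left out, and 6 with the astrocyte marker covariate, and leaving out each culture gave 2 to 3. *Ctsc* passed for IL-4 under 5 of 16 alternatives. No member was past it for genotype, except 1 with median-ratio scaling and 1 in the test of the average difference alone, *Ctsc* in both. No setting called a member for the interaction. The median genotype difference of the members was -0.05 and moved to 0.21 with the astrocyte marker covariate, and lay between -0.13 and 0.09 with a culture left out. That of IL-4 was 0.15 and stayed between 0.08 and 0.19. The most abundant proteases changed sign for genotype. *Ctsb* (-0.13) was at 0.054 with quantile normalization, 0.38 with the covariate, 0.15 without T15, with or without the block, and at -0.336 without T13. *Ctsd* (-0.05) was at 0.10, 0.37, 0.19 and -0.183 under the same settings and at 0.03 without T33. For IL-4, *Ctsb* (0.02) was at -0.022 with median-ratio scaling and -0.077 without T15, with or without the block. The causes were not tested.

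Of all genes, 185 were called for genotype, but 575 in the test of the average difference, 77 with the block, 50 with the covariate, 26 with no variance trend, 16 with no filter, 38 with the block and without T15, and 3 to 191 with a culture left out (3 without T33, 16 without T43, 49 without T15 and 99 without T32). For IL-4, 100 were called, but 240 with the block, 221 with the block and without T15, 191 with the covariate, 151 in the test of the average difference, 61 with no filter, 50 with no variance trend and 46 to 143 with a culture left out (46 without T43, 51 without T33, 56 without T13 and 65 without T32). The depth of each single library is unknown, so precision rests on the spread between 3 cultures per group.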
